A study of Mus musculus with 10 samples.

Results

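The mouse mitochondrial genome carries 37 genes, and all of them were found among the 54307 genes of the deposited count table by their Ensembl identifiers. They comprise 13 mRNAs, 2 rRNAs and 22 tRNAs. The libraries hold the poly(A)+ RNA of macrophages grown from mouse bone marrow, here in medium conditioned by L-929 fibroblasts until day 7. The tested group was homozygous for a knock-in of human WDFY3 (hWDFY3KI/KI, 5 libraries, described in the labels as overexpression), and the other group was wild-type control (Ctrl, 5 libraries). All mice were male and 6 to 8 weeks old. WDFY3 is a large scaffold protein of selective autophagy, and the sources used here do not give the locus or promoter of the knock-in.

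Mitochondrial DNA is a small circle copied many times in each cell, and both of its strands are transcribed into long precursors by the RNA polymerase POLRMT with TFAM and TFB2M. Transfer RNAs lie between most of the other genes, and their excision releases the rRNAs and mRNAs, which then receive short poly(A) tails. The protein products are core subunits of respiratory complexes I, III and IV and of ATP synthase, and all other proteins of mitochondrial gene expression are made from nuclear genes. Of the 37 genes, 28 are annotated on the plus strand, whose RNA is copied from the heavy strand. The remaining 9 are mt-Nd6 and 8 tRNAs, which are copied from the light strand. In human cells the ND6 mRNA is known to lack a poly(A) tail.

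The sequences that bear on how reads can be placed are shown first, from the transcripts of GENCODE M21 in GRCm38 coordinates. A segment of chromosome 1 from 24611535 to 24616197 holds 7 annotated pseudogenes that copy consecutive mitochondrial genes. The copies of mt-Co2 (Gm28661), mt-Atp6 (Gm10925), mt-Co3 (Gm28437) and mt-Nd4l (Gm10222) have the same sequence as their gene and lack only its last bases, which are the capitals below.
mt-Co2, chrM:7667-7696, plus strand: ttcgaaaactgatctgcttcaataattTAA
mt-Atp6, chrM:8578-8607, plus strand: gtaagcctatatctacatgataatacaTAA
mt-Co3, chrM:9361-9390, plus strand: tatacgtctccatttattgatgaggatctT
mt-Nd4l, chrM:10144-10173, plus strand: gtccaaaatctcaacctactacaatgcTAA

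The copy of mt-Nd4 (Gm28439) matches its first 876 of 1378 bases with full identity. Between mt-Nd3 and its copy Gm28438 the 345 compared bases differ by the substitution T3C, and between mt-Co1 and Gm29216 the 483 compared bases differ by A1066T, with the mitochondrial base first and positions counted from the first base of the mitochondrial gene. Gm13339, Gm13340 and Gm13341 on chromosome 2 and Gm4076 on chromosome 13 match mt-Nd2, mt-Co1, mt-Co2 and mt-Nd5 at 95.2 to 97.6% identity. In all, 9 mitochondrial genes had at least 1 of these 11 copies. Among annotated transcripts, mt-Nd1, mt-Atp8, mt-Nd6, mt-Cytb and the rRNAs had none at this limit of 100 bases and 95% identity. Genome sequence outside annotated transcripts was not searched, so a copy there would be missed. The 43 bases that mt-Atp8 shares with mt-Atp6 are also part of Gm10925.

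Neighbouring genes also overlap within the circle. mt-Atp8 and mt-Atp6 lie on the same mRNA and share 43 bases, which are the capitals in the full mt-Atp8 sequence. mt-Nd4l and mt-Nd4 share an mRNA and 7 bases. The ends of mt-Nd5 and mt-Nd6 overlap by 14 bases on opposite strands, again in capitals.
mt-Atp8, chrM:7766-7969, plus strand: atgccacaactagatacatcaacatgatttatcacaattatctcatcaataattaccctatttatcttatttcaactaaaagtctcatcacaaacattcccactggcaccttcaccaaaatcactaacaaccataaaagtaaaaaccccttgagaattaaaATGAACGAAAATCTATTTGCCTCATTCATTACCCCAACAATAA
mt-Nd5, chrM:13506-13565, plus strand: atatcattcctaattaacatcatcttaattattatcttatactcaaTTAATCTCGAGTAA
mt-Nd6, chrM:13552-13611, minus strand: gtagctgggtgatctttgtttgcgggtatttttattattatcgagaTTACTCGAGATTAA

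mt-Co3, mt-Nd4 and mt-Cytb have an annotated length that leaves 1 base after division into codons, and that base is the T in capitals in mt-Co3 above and here. Such mRNAs are known to gain a complete stop codon from the poly(A) tail.
mt-Nd4, chrM:11515-11544, plus strand: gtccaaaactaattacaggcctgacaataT
mt-Cytb, chrM:15259-15288, plus strand: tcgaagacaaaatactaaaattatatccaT

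The knock-in libraries held 15.2 to 22.9 M estimated counts and the control libraries 14.62 to 36.39 M. All 7 macrophage markers were above 1 CPM (counts over the TMM-adjusted library total) in every library. They summed to 29880 to 36900 CPM in knock-in and 23800 to 34710 CPM in control libraries. Summed stromal markers (11 genes, none at 0 throughout) reached 1.43 to 95.8 CPM in knock-in libraries and 6.06 to 167 CPM in controls, with knock-in 4, control 1 and control 4 highest. Neutrophil markers summed to 3.58 to 19.2 CPM in knock-in and 6.24 to 49.7 CPM in control libraries, and the lists for dendritic, B, T and erythroid cells stayed at or under 4.88 CPM. Mouse Wdfy3 was at 111 to 127 CPM in knock-in and 99.96 to 121 CPM in control libraries. It does not check the labels, since the human transcript was not measured here.

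The tRNA genes, 59 to 75 bases long and so shorter than the 100-base reads, gave 13 counts in all 10 libraries together. Of the 22 tRNAs 16 had a count of 0 throughout, which allows up to 3 counts per library, or 0.0851 to 0.195 CPM depending on depth. The other 6 included mt-Tl1, the leucine tRNA next to mt-Rnr2 and mt-Nd1, with 8 counts.
mt-Tl1, chrM:2676-2750, plus strand: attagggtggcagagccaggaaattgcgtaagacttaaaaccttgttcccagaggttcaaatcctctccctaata
The remaining 15 genes, all mRNAs and both rRNAs, passed the filter on low counts in both groups, so the values that follow refer to these 15.

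Levels differed widely among genes that share a precursor. On the scale of CPM per kb of gene, with the counts of the nuclear copies added to their gene, mt-Co1 stood at 12651 ± 795 in knock-in and 12114 ± 1377 in control macrophages (SD, n = 5 each). Its product is the catalytic core of cytochrome c oxidase, complex IV. mt-Co2, another complex IV subunit, stood at 11985 ± 533 and 10741 ± 847, and these 2 genes held the upper ranks in each of the 10 libraries. mt-Atp6 and mt-Atp8 of ATP synthase and mt-Co3 of complex IV took ranks 3 to 5, and their ranges overlapped.

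The complex I mRNAs were lower per kb. mt-Nd1, together with mt-Cytb of complex III, ranged from 3458 to 4519 CPM per kb in knock-in and from 3124 to 4692.5 in control libraries. mt-Nd4, mt-Nd4l, mt-Nd5, mt-Nd2 and mt-Nd3 followed, from 1470 to 3028 in knock-in and from 1102 to 2665 in control libraries. Both rRNAs, the RNA cores of the mitochondrial ribosome, were captured at only 345 to 491 CPM per kb in knock-in and 224 to 492 in control libraries. mt-Nd6 came last in every library, at 10.5 to 13.8 CPM per kb in knock-in and 12.6 to 21.2 in controls. These ranks describe poly(A)+ libraries, so they reflect capture as well as abundance. They also use the full annotated length with no correction for fragment size, which matters most for short genes such as mt-Atp8 (204 bases). Genes that share an mRNA were ranked apart.

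**Figure D1:**
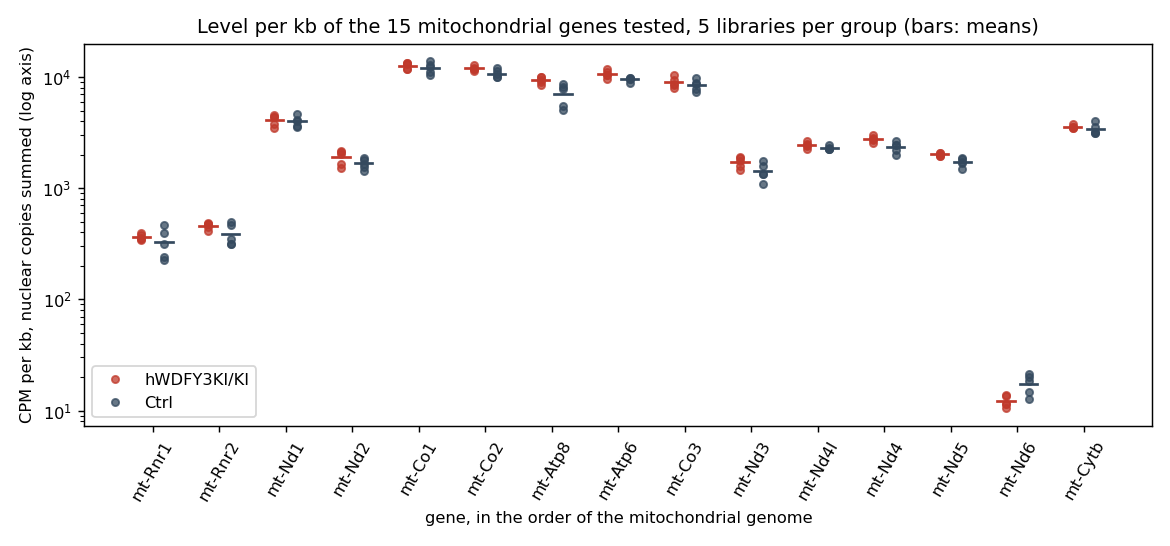
CPM per kb (log axis, nuclear copies summed with their gene) for the 15 genes in genome order, with points for single libraries and bars for means, hWDFY3KI/KI left of Ctrl. The complex IV and ATP synthase mRNAs lie highest, the rRNAs between 224 and 492, and mt-Nd6 between 10.5 and 21.2.

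The 37 genes together made up 6.02, 5.99, 6.12, 6.30 and 6.09% of the counts in knock-in libraries 1 to 5 and 6.02, 5.61, 5.45, 5.80 and 5.34% in control libraries 1 to 5. The groups overlapped at control 1, the control with the highest share, and the difference of means was 0.460 percentage points. With the nuclear copies included the shares were 6.34 ± 0.110% in knock-in and 5.88 ± 0.266% in control macrophages (SD, n = 5 each). Divided by gene length, the share was 18.0 to 19.1% in knock-in and 16.5 to 17.5% in control libraries, and on that scale the groups did not overlap. Being a score over genes chosen with earlier results known, this share was given no test. In bulk RNA, a different cell mixture and more mitochondrial RNA per cell cannot be told apart.

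Over all genes, edgeR's quasi-likelihood test called 10 of 12411 genes (0.0806%) at an adjusted p under 0.05, and 0 of the 15 mitochondrial genes were among them. Of all tested genes 0.0403% were called higher and 0.0403% lower. DESeq2, which tested 24020 genes and called 0.187% of them, had 0 of the 15 as well. At an unadjusted p under 0.05 in edgeR, 5 of the 15 had a higher level in knock-in macrophages (3.29% of all tested genes did) and 1 had a lower level (2.92% did), where 6.21% of all genes met the criterion in either direction. The log2 fold change was positive for 14 of 15 (median 0.15), against 48.3% of all tested genes (median -0.0046), but for 8 of 15 when libraries were scaled to their mitochondrial total, which by its construction centres these genes and moved the median of all genes to -0.136. On that scale mt-Nd1, mt-Co1, mt-Co2, mt-Co3, mt-Nd4l and mt-Cytb were negative beside mt-Nd6. These 15 genes come from shared precursors and are not independent measurements.

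mt-Nd5, a proton-pumping subunit of complex I, was the one gene of the 15 whose groups did not overlap, which 0.733% of all tested genes did in the same direction. It was at 3528, 3575, 3661, 3776 and 3812 CPM in knock-in libraries 1 to 5, against 3391, 2734, 3047, 3346 and 3142 CPM in control libraries 1 to 5. Every knock-in library lay above the highest control. The fold change was 1.17 (log2 0.23 ± 0.064 SE), with an unadjusted p = 0.0033 and an adjusted p = 0.533 in edgeR, so the difference did not pass the test over all genes. DESeq2 gave an adjusted p of 0.0755, and over all alternatives it ran from 0.0737 (DESeq2 with copies summed) to 0.987.

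mt-Nd6, a complex I subunit and the sole light-strand mRNA, was the exception in direction. Its estimated counts were 122, 90.9, 162, 140 and 114 in knock-in libraries 1 to 5 and 197, 152, 172, 388 and 118 in control libraries 1 to 5. Scaled to depth these were 5.95, 5.92, 7.07, 7.17 and 5.45 CPM in knock-in libraries, against 9.66, 6.53, 10.3, 11.002 and 7.67 CPM in control libraries. All knock-in libraries but 2 lay below every control, and those 2, knock-in 3 and 4, exceeded only control 2. The log2 fold change was -0.52 ± 0.15 (unadjusted p = 0.00368, adjusted p = 0.551, edgeR), which did not pass. limma-trend on the deposited regularized log2 values, a different scale, gave a smaller difference of -0.19 (unadjusted p = 0.00333, adjusted p = 0.728). Without controls 1 and 2, a choice made after seeing the data, it was -0.62 (adjusted p = 0.533, with a range of 0.0873 to 0.987 over the alternatives).

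The light strand gave a minute part of mitochondrial mRNA in both groups. mt-Nd6 made up 0.0104 ± 0.00103% of the counts of the 13 mRNAs in knock-in and 0.0163 ± 0.00289% in control macrophages (SD, n = 5 each). Set against mt-Nd5, its neighbour on the opposite strand, there were 5.92, 5.81, 6.79, 6.68 and 5.02 units of mt-Nd6 per 1000 units of mt-Nd5 (CPM per kb) in knock-in libraries 1 to 5. In control libraries 1 to 5 there were 10.0, 8.40, 11.9, 11.6 and 8.58. These ratios did not overlap between the groups, but they join the 2 members with the smallest p and were given no test. The kit kept strand, yet the sources used here do not give whether the counting used it. If it did not, RNA of the heavy strand running through mt-Nd6 could be counted as mt-Nd6.

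**Figure D2:**
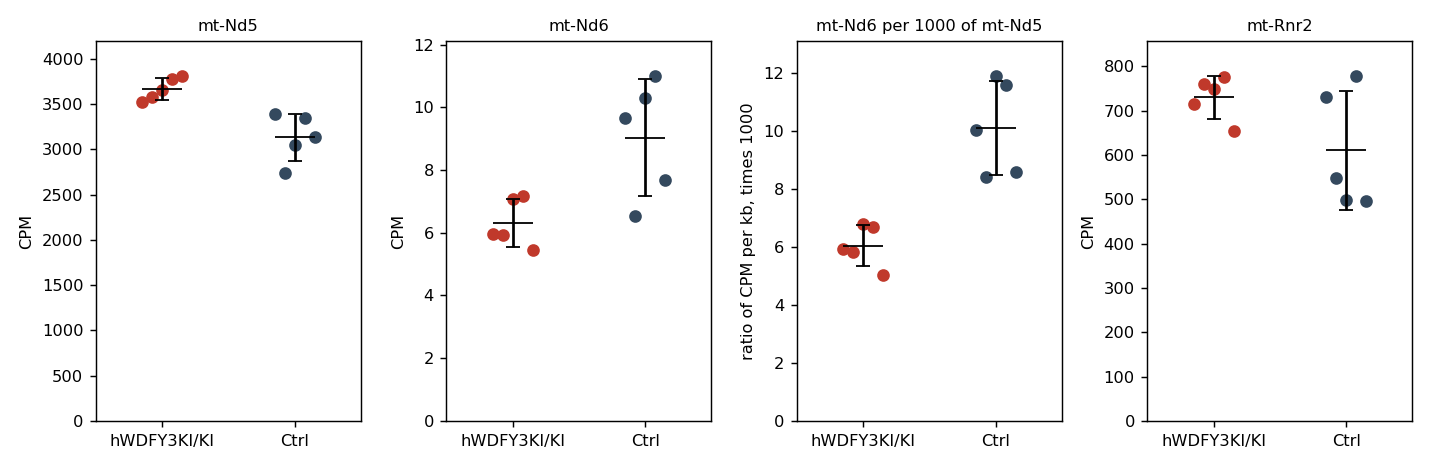
CPM of mt-Nd5, mt-Nd6 and mt-Rnr2 and the ratio of mt-Nd6 to mt-Nd5 (CPM per kb, times 1000), with points for libraries, horizontal marks for means and bars for SD, hWDFY3KI/KI left of Ctrl. mt-Nd5 and the ratio do not overlap between groups, whereas mt-Nd6 and mt-Rnr2 do.

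The fitted difference of mt-Atp6, an mRNA of ATP synthase, depended on whether its nuclear copy was added. mt-Atp6, which forms the proton channel, was deposited at 7033, 6600, 7523, 7971 and 7081 CPM in knock-in libraries 1 to 5 and at 6170, 5080, 6600, 6664 and 5895 CPM in control libraries 1 to 5 (log2 0.25 ± 0.080, unadjusted p = 0.00759, adjusted p = 0.655, edgeR). Control 2 stood lowest. The identical copy Gm10925 took 23.7% of the summed counts in control 2 and 6.34% in control 1, but at most 1.74% in the other controls and 0.886% in the knock-in libraries. With the copy added, mt-Atp6 was at 6587, 6661, 6600, 6663 and 5999 CPM in control libraries 1 to 5, so that control 2 no longer stood lowest. The log2 fold change became 0.16 ± 0.063 (adjusted p = 0.742, edgeR, with a range of 0.214 to 0.987 over the alternatives), which is over 1.5 times smaller.

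For mt-Co2 the sum worked in the other direction. Its identical copy Gm28661 took 7.48, 7.10, 10.5, 2.88 and 3.05% of the summed counts in knock-in libraries 1 to 5, against 0.200, 1.53, 0.540, 0.437 and 15.3% in control libraries 1 to 5. mt-Co2 alone was at 7690 ± 480 CPM in knock-in and 7098 ± 902 CPM in control macrophages (log2 0.12 ± 0.085, adjusted p = 0.856, edgeR, n = 5 each). Without control 5 the log2 difference was 0.05 and without knock-in 4 it was 0.074. With its copies the log2 fold change was 0.16 ± 0.065 (unadjusted p = 0.03, adjusted p = 0.743, with a range of 0.324 to 1 over the alternatives).

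The other copies varied less, apart from single libraries. Gm29216 took 8.90 to 9.62% of the sum with mt-Co1 in knock-in and 7.98 to 9.15% in control libraries. Gm28438 had counts in control 5 alone, where it held 25.8% of the sum with mt-Nd3, and Gm28439 in knock-in 1 alone, with 1.32% of the sum with mt-Nd4. The copies of mt-Co3 and mt-Nd4l were listed at 0 in all 10 libraries although their sequence is as close to the gene as that of Gm10925. None of the 4 copies tested as genes was called, and Gm10925 had the largest fitted difference among them (log2 -4.37 ± 2.17, adjusted p = 0.81, edgeR). Reads inside the identical stretches carry no base that would place them, so the deposited values of these genes are uncertain. The shares given are the deposited split and do not measure the size of that uncertainty.

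**Figure D3:**
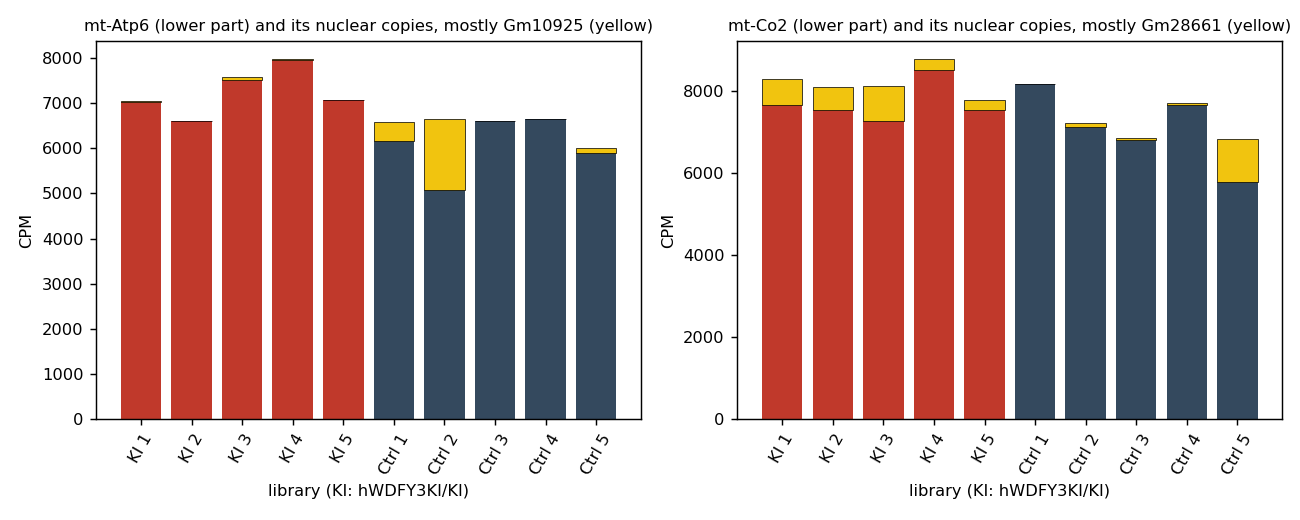
CPM per library of mt-Atp6 and mt-Co2 (red for hWDFY3KI/KI, dark for Ctrl) with the CPM of their nuclear copies stacked in yellow. For mt-Atp6 the yellow part is large in control 2 (23.7% of the sum), and for mt-Co2 in control 5 (15.3%).

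**Figure D4:**
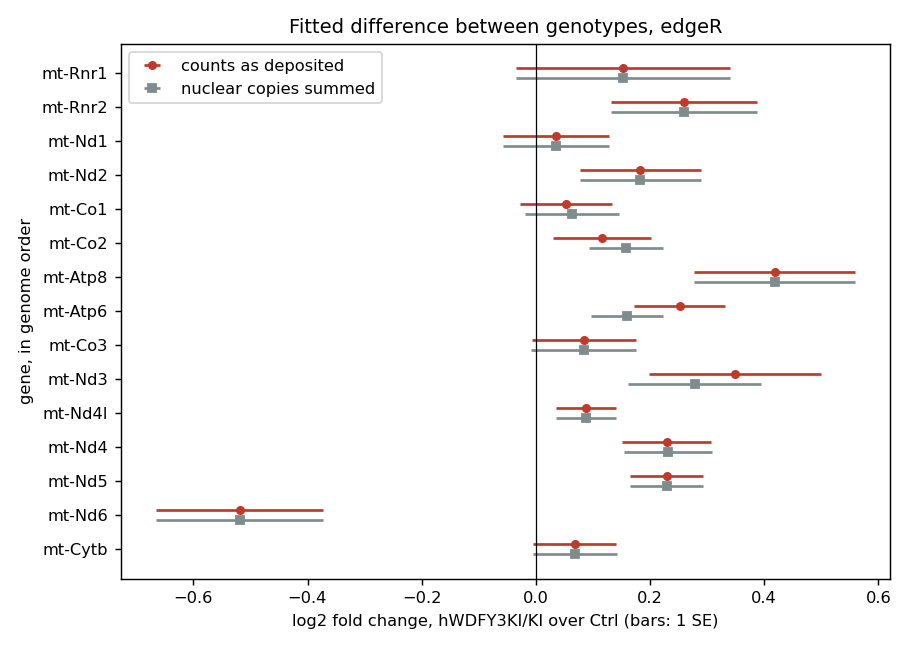
Fitted log2 fold change of the 15 genes, hWDFY3KI/KI over Ctrl, with bars of 1 SE, for the deposited counts (circles) and with nuclear copies summed (squares). 14 genes lie right of 0 and mt-Nd6 left of it, although 6 of the 14 turn negative relative to the mitochondrial total, and summing moves mt-Atp6 from 0.25 to 0.16 and mt-Nd3 from 0.35 to 0.28.

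mt-Atp8, the small subunit encoded ahead of mt-Atp6 on the same mRNA, had the largest positive fitted difference, log2 0.42 ± 0.14 (unadjusted p = 0.0131, adjusted p = 0.7, edgeR). It was at 1903, 1740, 2027, 2025 and 1847 CPM in knock-in libraries 1 to 5, against 1112, 1033, 1657, 1583 and 1759 CPM in control libraries 1 to 5. Controls 1 and 2 stood low, and control 5 lay within the knock-in range. The estimate dropped to 0.20 without controls 1 and 2, a choice made after seeing the data. In that fit edgeR gave an unadjusted p = 0.0147 and an adjusted p = 0.864, with a range of 0.323 to 0.987 over the alternatives.

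Of 6 ratios computed between mitochondrial genes, 4 had controls 1 and 2 outside the range of the other 8 libraries by a clear gap. The level of mt-Atp8 per kb, divided by that of mt-Atp6 with its copy, was 0.847 to 0.901 in the knock-in libraries. It was 0.563 and 0.518 in controls 1 and 2 and 0.838, 0.793 and 0.979 in controls 3, 4 and 5. The copy held its largest shares in controls 1 and 2, so adding it to mt-Atp6 widened this gap. Without the copy the ratio was 0.602 and 0.679 in controls 1 and 2 and 0.838, 0.793 and 0.996 in controls 3, 4 and 5. The knock-in libraries then had 0.848 to 0.903. mt-Nd4l over mt-Nd4, likewise from 1 mRNA, was 0.871 to 0.892 in knock-in libraries, 1.09 and 1.14 in controls 1 and 2, and 0.851 to 0.932 in the other controls. mt-Cytb over mt-Nd5 was 1.72 to 1.80 in knock-in libraries, 2.16 and 2.38 in controls 1 and 2, and 1.73 to 1.87 in the other controls. The coefficient of variation was larger in the control group for 13 of the 15 genes. Controls 1 and 2 had 21.2 and 22.6 M counts, and what sets them apart was not tested. mt-Rnr1 over mt-Rnr2 was 0.755 to 0.835 in knock-in libraries, 1.02 and 0.899 in controls 1 and 2, and 0.716 to 0.796 in the other controls. The remaining ratios gave no such gap for controls 1 and 2 together. mt-Co2 over mt-Co1 was 0.893 to 1.01 in knock-in libraries, 0.862 and 0.857 in controls 1 and 2 and 0.872 to 0.960 in the other controls. For mt-Co3 over mt-Atp6 control 1 stood highest, at 1.01. Control 2, at 0.896, came next but lay close to control 4 at 0.889 and knock-in 4 at 0.887.

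**Figure D5:**
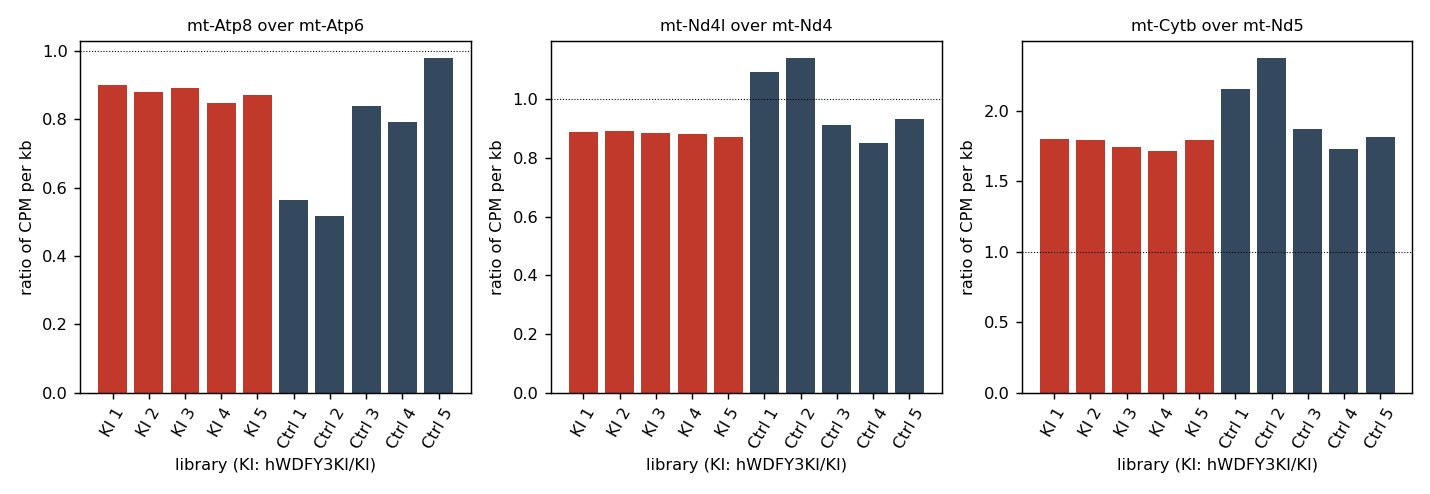
Ratios of CPM per kb (copies summed) between 3 of the pairs of mitochondrial mRNAs in each library, chosen because controls 1 and 2 differed in them, red for hWDFY3KI/KI and dark for Ctrl, with a dotted line at 1. Controls 1 and 2 stand apart in all panels, for example at 1.09 and 1.14 against 0.851 to 0.932 in the other 8 libraries for mt-Nd4l over mt-Nd4.

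The log2 fold changes of the 12 heavy-strand mRNAs ran from 0.035 (mt-Nd1) to 0.42 (mt-Atp8) in all 10 libraries, with or without the copies. Without controls 1 and 2 they ran from 0.11 (mt-Nd4l) to 0.26 (mt-Nd3), and with the copies summed as well to 0.21 (mt-Nd5). Of these mRNAs 0 were called in either fit (edgeR). mt-Cytb moved most upward in this step, to 0.18 (adjusted p = 0.673, with a range of 0.627 to 1 over the alternatives) with an unadjusted p of 0.00516, against 0.068 ± 0.073 in all libraries. Controls 1 and 2 were chosen for ratios among these same mRNAs, so a narrower range without them is partly built in.

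The remaining complex I mRNAs can be given by group. mt-Nd4 was at 3808 ± 254 CPM in knock-in and 3250 ± 346 CPM in control macrophages (log2 0.23 ± 0.078, adjusted p = 0.7). mt-Nd3 was at 599 ± 67.8 and 471 ± 110 CPM (log2 0.35 ± 0.15, adjusted p = 0.787), and with its copy the log2 difference was 0.28 ± 0.12. mt-Nd2 was at 1967 ± 299 and 1732 ± 183 CPM, mt-Nd1 at 3931 ± 442 and 3836 ± 436 CPM, and mt-Nd4l at 726 ± 40.2 and 683 ± 22.3 CPM. In each of these genes the groups overlapped. mt-Co1 was at 17742 ± 1103 and 17101 ± 1955 CPM, mt-Co3 at 7043 ± 763 and 6645 ± 760 CPM, and mt-Cytb at 4077 ± 122 and 3889 ± 445 CPM (SD, n = 5 each, knock-in before control).

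The rRNAs spread more among controls than among knock-in libraries, with a coefficient of variation for mt-Rnr1 of 6.01% in knock-in and 31.5% in control macrophages. mt-Rnr2, the large ribosomal RNA, was at 714, 760, 749, 776 and 653 CPM in knock-in libraries 1 to 5, against 731, 549, 498, 779 and 496 CPM in control libraries 1 to 5. The controls split into a higher pair, 1 and 4, and a lower trio. Summed stromal markers were 2.34, 14.4, 21.6, 95.8 and 1.43 CPM in knock-in libraries 1 to 5, against 160.5, 11.4, 6.06, 167 and 7.41 CPM in control libraries 1 to 5, so the same 2 controls were high in both. Summed macrophage markers were 31140, 32420, 34280, 36900 and 29880 CPM in knock-in libraries 1 to 5, against 32810, 26430, 26100, 34710 and 23800 CPM in control libraries 1 to 5, and controls 1 and 4 were again the highest controls. Neutrophil markers were also highest among controls in these libraries, at 38.8 and 49.7 CPM. In all 10 libraries the log2 fold change of mt-Rnr2 was 0.26 ± 0.13 (adjusted p = 0.806, edgeR). Without the 3 libraries highest in stromal markers (knock-in 4, controls 1 and 4) it was 0.48 with an adjusted p of 0.0154, in a fit that called 0.304% of 12485 genes and no other mitochondrial gene. That p ranged from 0.0154 to 1 over the alternatives. Controls 1 and 4 were the highest controls for both rRNAs, and knock-in 4 the highest knock-in library. A larger difference without these controls is therefore partly built in. mt-Rnr1, the small ribosomal RNA, was at 348 ± 20.9 CPM in knock-in and 313 ± 98.6 CPM in control macrophages, with a log2 fold change of 0.15 ± 0.19 (adjusted p = 0.91). Leaving out control 5 or control 3 gave 0.043 or 0.059, and leaving out control 1 gave 0.32. Without the 3 stroma-rich libraries it was 0.46 (edgeR adjusted p of 0.159, in a range of 0.155 to 1). A fit of all 10 libraries that included the stromal score gave mt-Rnr2 a log2 fold change of 0.40 (adjusted p = 0.0983, edgeR) and mt-Rnr1 of 0.35 (adjusted p = 0.657), so neither was called. The part of macrophage and neutrophil RNA in these values was not tested.

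Nuclear genes were listed for 7 roles: transcription, RNA processing, replication, the ribosome and translation of the mitochondrial system, biogenesis regulators and nuclear respiratory chain subunits with their assembly factors. Together they showed 0 calls among 268 tested of 278 listed (edgeR), as did DESeq2. At an unadjusted p under 0.05 in edgeR, 1 of the 268 was higher, a smaller share than the 3.29% of all tested genes. Another 20 were lower, a larger share than the 2.92% of all tested genes. A positive log2 fold change was found for 72 of 268 (26.9%, against 48.3% of all tested genes), with a median of -0.048 against -0.0046 over all genes. For transcription and the nucleoid, 4 of 10 tested genes were positive (median -0.0087). POLRMT's gene Polrmt was at 15.5 ± 0.775 CPM in knock-in and 15.4 ± 3.28 CPM in control macrophages. Tfam, which packages and activates mitochondrial DNA, was at 20.9 ± 0.615 and 21.2 ± 2.42 CPM, and Tfb2m, the partner that melts the promoter, at 20.5 ± 1.90 and 19.7 ± 1.86 CPM. Mterf3, a regulator of the MTERF family, had the smallest p of this list (log2 -0.12 ± 0.085, adjusted p = 0.856), followed by Mterf1a (log2 -0.23 ± 0.18, adjusted p = 0.856).

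RNA processing and decay had 11 of 34 positive (median -0.038). Mrm1, which methylates the large rRNA, was at 7.85 ± 0.570 CPM in knock-in and 9.04 ± 0.678 CPM in control macrophages (adjusted p = 0.778), and Nsun3, which modifies the methionine tRNA, at 15.7 ± 1.56 and 14.2 ± 0.945 CPM. Genes of mitochondrial DNA replication and its nucleotides had 5 of 15 positive (median -0.040). Rrm2b, a ribonucleotide reductase subunit, was at 17.6 ± 0.958 CPM in knock-in and 14.9 ± 2.17 CPM in control macrophages (adjusted p = 0.736), and Dguok, deoxyguanosine kinase, at 14.2 ± 1.20 and 16 ± 1.11 CPM (adjusted p = 0.795). None of these differences passed the test.

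Proteins of the mitochondrial ribosome had 16 of 79 positive (20.3%, against 48.3% of all tested genes; median -0.054). At an unadjusted p under 0.05, 10 of the 79 were lower, a larger share than the 2.92% of all tested genes. Mrpl52 was at 11.95 ± 1.28 CPM in knock-in and 14.55 ± 0.838 CPM in control macrophages (log2 -0.29 ± 0.084, adjusted p = 0.588), and Mrpl42 at 38.6 ± 2.32 and 44.7 ± 3.93 CPM (log2 -0.21 ± 0.067, adjusted p = 0.655). tRNA synthetases and translation factors had 10 of 30 positive (median -0.027). Gars, the glycyl-tRNA synthetase that serves cytosol and mitochondria, was at 53.8 ± 2.30 and 59.5 ± 4.42 CPM, and Mtrf1, a release factor, at 5.99 ± 0.446 and 6.998 ± 1.41 CPM. Regulators of mitochondrial biogenesis had 7 of 8 tested genes positive (median 0.033). The transcription factor Yy1 was at 89.4 ± 2.59 and 85.9 ± 3.35 CPM, and Gabpb1, a subunit of nuclear respiratory factor 2, at 13.4 ± 1.20 and 12.5 ± 1.38 CPM (knock-in before control).

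The nuclear respiratory chain list, which includes assembly factors, had 19 of 93 positive (median -0.061), whereas 12 of 13 mitochondrial mRNAs were positive (median 0.12). Its members with the smallest p were Ndufa4 (log2 -0.17 ± 0.056) and Atp5s (log2 -0.48 ± 0.16), each with an adjusted p of 0.683 in edgeR. The difference between nuclear and mitochondrial subunits was not tested.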

How the data were processed

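Poly(A)+ RNA was made into strand-specific libraries and sequenced in pairs of 100 bases, to a planned 20 M reads, per the labels' protocols. Per the submitters' processing notes, the tools were Salmon 1.6.0, DESeq2 1.34.0 and MultiQC, with GRCm39 and mm10 as builds of unstated role. The authors deposited estimated counts per Ensembl gene and, as the table's name tells, regularized log2 values, which hold 13 of the 37 genes. The sources used here give neither the transcript set nor the strand setting of the counting.

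The counts were first rounded to whole numbers. Names, lengths and coordinates came from GENCODE M21 (GRCm38) by gene ID, which matched 51482 of 54307 genes. The quasi-likelihood F-test of edgeR 4.0.16 in R 4.3.3 was run over 5 against 5 libraries (TMM, filterByExpr, robust dispersion), Benjamini-Hochberg adjusted over 12411 genes at 0.05. The SE is the log2 fold change over the square root of F. CPM uses TMM-scaled library sizes. Depth of 14.62 to 36.39 M counts sets the precision, and the floor for a count of 0 covers counting error only. By their labels the libraries come from separate mice, and within groups none was a copy of another (chi-square per gene of 8.75 to 54.5 over 20 pairs). Copies were searched among the annotated transcripts with BLAST 2.17.0. The fit was also run on simulated counts with known changes and the same dispersion for every gene. Its recovery of small differences is not reported here.

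The genes, lists and several alternatives were chosen with earlier results of these data known. The genes named are all 37, and of each nuclear list those called or the 2 with the smallest p. Polrmt, Tfam and Tfb2m were added by role. Alternatives were RLE, upper-quartile and nuclear-only factors, scaling to the mitochondrial total, DESeq2 1.42.0, limma 3.58.1 (voom, and trend on the deposited log2 values), other filters, no robust estimation, counts not rounded, the replicate number as a block, a stromal score as covariate, and libraries left out. Summing nuclear copies and leaving out controls 1 and 2 were added after seeing the data.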

Additional observations from a re-analysis of the deposited data

Results flagged for a closer look

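In groups of 5 libraries, a library was singled out where its gap to the nearest other exceeded 0.71 of the group's range (Dixon's 95% limit), in 52 groups of values. Chance alone singles out about 1 in 20 groups, and 5 were found. Knock-in 5 stood high for mt-Cytb, at 4289 CPM. Control 1 stood high for mt-Nd4l, at 722 CPM. With nuclear copies summed, control 5 stood low for mt-Atp6, at 5999 CPM. The copy Gm28661 held 15.3% of the counts summed with mt-Co2 in control 5, and the copy Gm10925 held 23.7% of those summed with mt-Atp6 in control 2, each far above the other controls. Gm28438 had counts only in control 5, and Gm28439 only in knock-in 1. Both would exceed this limit but are not among the 5.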

How the results depend on the processing

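The count of 0 mitochondrial genes called was kept under every alternative run except the fits without the 3 stroma-rich libraries, which called 1 gene (mt-Rnr2, 1 also with copies summed). Those fits leave out controls 1 and 4, the highest controls for mt-Rnr2. The nuclear genes had 0 calls throughout. The replicate numbers did not pair the libraries (correlation of deviations from -0.2 to 0.509, with 2 of 5 best matched to their own number), and the replicate block left 0 mitochondrial genes called and gave 12 calls over all genes, against 10 without it. Scaling to the mitochondrial total moved the median of all genes to -0.136 and reversed mt-Nd1 (-0.092), mt-Co1 (-0.071), mt-Co2 (-0.009), mt-Co3 (-0.045), mt-Nd4l (-0.044) and mt-Cytb (-0.059), while mt-Nd6 was at -0.64 (adjusted p = 0.108). With copies summed it also reversed mt-Nd1 (-0.087), mt-Co1 (-0.057), mt-Co3 (-0.04), mt-Nd4l (-0.039) and mt-Cytb (-0.053). Leaving out each library gave mt-Nd1 a range of -0.005 to 0.1, below 0 without knock-in 3 (-0.002) or control 3 (-0.005), with or without copies, and it gave mt-Co1 0.001 to 0.106, mt-Co3 0.024 to 0.144 and mt-Cytb 0.039 to 0.137. The difference of mt-Nd6 was smallest (-0.19) with limma-trend, which used the deposited regularized log2 values and so a different scale. Dividing by gene length gave a difference of 1.59 percentage points in mitochondrial share, with groups that no longer overlapped, and of -0.0103 in light-strand share. Leaving out each library gave a difference in mitochondrial share of 0.384 to 0.554 points and in light-strand share of -0.00685 to -0.00507. Low counts limit mt-Nd6, and the tRNAs could not be measured.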
